A study of Homo sapiens with 32 samples.

Results

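The Schlafen genes SLFN5, SLFN11, SLFN12 and SLFN13 were followed through 7 comparisons of TET21 cells with and without ectopic MYC. They were chosen by gene symbol, 4 of the 58317 genes in the authors' deposited table, and SLFN11 was picked because its fall with MYC was already known to be deep. TET21 cells are SH-EP neuroblastoma cells of human origin with a MYCN transgene that can be shut off by doxycycline, and their RNA was sequenced in 32 libraries, 4 for each of 8 groups. An empty vector (EV) is the control, 1 group expresses full-length MYC ectopically (WT), and in 6 others the ectopic MYC carries a deletion: d0x, d1 and d2, then d3a, d3b and d4. From their names the deletions are taken to be the conserved MYC boxes, box 0, I, II, IIIa, IIIb and IV, although the labels do not describe them. The growth protocol attached to every library describes 7 days of doxycycline at 1 µg/mL but names only cells expressing WT MYC, so it does not settle whether EV and the mutants had it and the MYCN transgene was off in them. All groups also carry the cells' own MYC, and passages or separate cultures behind the 4 replicates, numbered 4 to 7, are not distinguished, so the spread behind a call may be technical.

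Schlafen proteins are a mammalian family induced by interferon. SLFN11 is known for sensitising tumour cells to drugs that damage DNA: it is recruited to stalled replication forks by the single-strand binding protein RPA and keeps them from restarting. SLFN11 and SLFN13 also cut transfer RNA, which lowers translation and restricts viruses, SLFN12 is an RNase that becomes active when certain small molecules glue it to the phosphodiesterase PDE3A, and SLFN5 acts in the nucleus as a repressor of transcription, including that of interferon targets and viral genomes.

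All 6 Schlafen genes of the cluster lie next to each other on chromosome 17, in the order SLFN5, SLFN11, SLFN12, SLFN13, SLFN12L, SLFN14, as RefSeq lists them. MYC binding was mapped in 1 experiment, and none of the 4 members is in the authors' deposited table of 9368 genes given a MYC binding site, which holds 24.0% of the genes tested in WT against EV. Promoters of 2 of the 4 members, SLFN11 and SLFN12, were matched in RefSeq sequence of build GRCh38.p14. They are shown because their genes stand side by side and only the first of them fell with full-length MYC. Both lie on the minus strand, SLFN11 at chr17:35373622-35373871 and SLFN12 at chr17:35433175-35433424. Each sequence is the 250 bases before the annotated start, read 5′ to 3′, and capitals mark matches to the motifs named after them.
SLFN11: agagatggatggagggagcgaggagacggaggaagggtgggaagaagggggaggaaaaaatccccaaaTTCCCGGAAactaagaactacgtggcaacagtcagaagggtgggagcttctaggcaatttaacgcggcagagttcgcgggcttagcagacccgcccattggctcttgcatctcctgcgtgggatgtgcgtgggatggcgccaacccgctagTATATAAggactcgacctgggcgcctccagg
SLFN12: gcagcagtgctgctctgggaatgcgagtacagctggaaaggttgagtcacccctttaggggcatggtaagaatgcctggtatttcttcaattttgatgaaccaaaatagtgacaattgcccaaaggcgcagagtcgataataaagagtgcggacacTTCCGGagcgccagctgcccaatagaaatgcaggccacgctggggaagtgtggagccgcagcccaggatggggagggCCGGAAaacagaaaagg

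Both strands were searched for 7 motifs. The E-box CACGTG, to which MYC and MAX bind, and the variants CACGCG and CATGTG were found in neither window, and CACGTG is in 6.35% of 35116 promoters of the same length. The SLFN11 window holds TTCNNNGAA, the letters of a STAT element, 182 bases before the start (6.57% of promoters hold it). That match overlaps a CCGGAA, the core bound by ETS factors, which is in 14.5% of promoters. SLFN11 also has the TATA-type run TATATAA 31 bases before its start, found in 2.42% of promoters. SLFN12 has CCGGAA 2 times, 1 on each strand, and neither window holds GAAANNGAA, a core of interferon response elements, which is in 6.88% of promoters. The letters TTCNNNGAA are not particular to the gene that fell. SLFN12L, uncalled in WT against EV, holds them 2 times in its window of the same length, and GAAANNGAA 1 time. None of the E-box forms, CCGGAA or TATATAA is in that window. A match of letters is a description and not a binding site.

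The targeted gene was checked first: the authors' deposited table put MYC at a log2 fold of 0.98 in WT against EV, with a posterior probability of differential expression of 0.348, below the 0.95 at which the authors call a gene. In the mutants against WT it lay between -0.09 in d3b and 0.68 in d2, again uncalled, and a fold over the whole gene does not show the deletions. The files used here hold no levels, so the line could not be checked against its markers: a value needs only some reads, and 10 of 10 epithelial markers had one too. Of 11 mesenchymal neuroblastoma markers, the state known for SH-EP cells, 4 fell in WT against EV, with a list median of -0.36. Over all tested genes 2.94% fell, with a median of -0.04. The 4 fallen markers were the matrix protein FN1 at -2.51, the transcription factors SNAI2 at -1.35 and FOSL2 at -0.50, and the receptor NOTCH2 at -0.51 in the authors' deposited table. In d2 FN1 (1.77) and SNAI2 (1.36) rose against WT in the authors' deposited table, where 1.45% of all tested genes were called, risen or fallen. Of 10 adrenergic markers 8 had values in WT against EV, with a median of -0.35, and HAND2 rose, at 0.48 in the authors' deposited table. Of 38218 genes tested there, 1876 were called, risen or fallen. Since neither library values nor errors of the folds were used here, each fold below stands alone.

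In WT against EV, SLFN5 and SLFN11 fell and SLFN12 and SLFN13 were not called. The fall of SLFN11 is what chose it, so the values of this comparison are a description. For SLFN11 the authors' deposited table gives a log2 fold of -6.35 with a probability of 1.00, which corresponds to 1.22% of the EV level. Only 6 of 38218 tested genes, SLFN11 included, lay that low, and all 6 were called. SLFN5 stood at -1.73 with a probability of 1.00 in the authors' deposited table, or 30.2% of the EV level. The next genes in the cluster were not called in the authors' deposited table, SLFN12 at -0.03 (probability 0.0185) and SLFN13 at 0.37 (probability 0.0402). Thus 2 of 4 members fell, where 2.94% of all tested genes did, a share from which nothing is read because the contrast entered the choice of members. In these bulk samples, fewer cells that express a gene and less RNA per cell cannot be told apart.

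**Figure D1:**
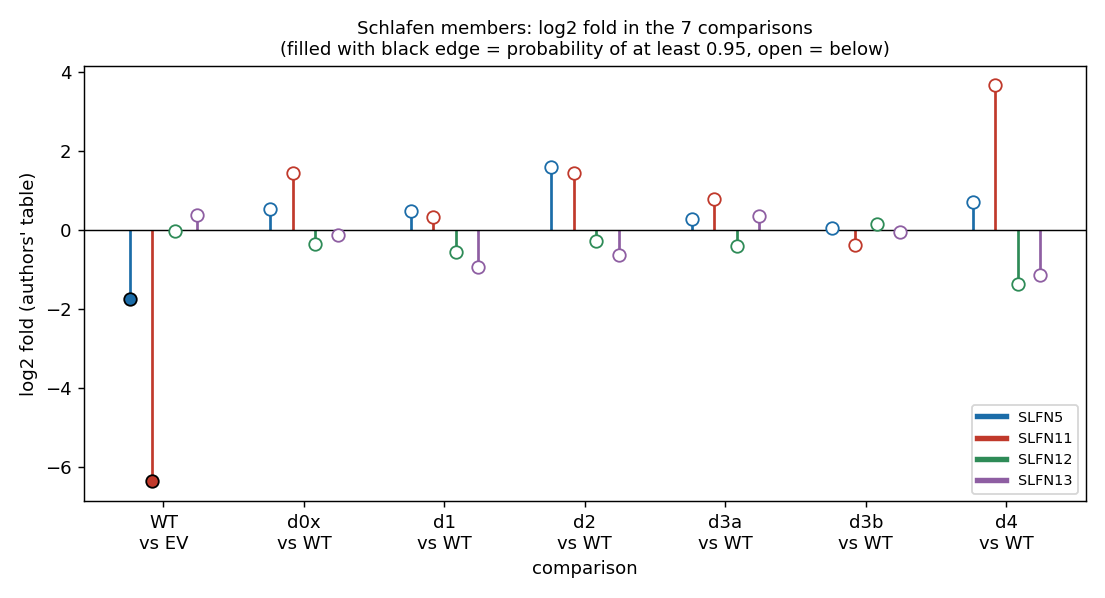
Log2 fold of SLFN5, SLFN11, SLFN12 and SLFN13 (y axis) in each of the 7 comparisons (x axis), from the authors' deposited table. Filled points have a probability of at least 0.95, which only SLFN5 (-1.73) and SLFN11 (-6.35) in WT against EV reach, and in d4 against WT the first pair of genes stands above 0 and the second pair below.

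Against WT, none of the 4 members was called in any mutant by the authors' Bayesian model. The share of all tested genes called there was 0.559% in d0x, 0.119% in d1, 1.45% in d2, 0.0419% in d3a, 0.0955% in d3b and 1.11% in d4. With so few calls in general, 0 of 4 is near the background. SLFN5 in d2 came closest to a call, with a fold of 1.60 and a probability of 0.922 in the authors' deposited table, and it would be called at a probability of 0.90 (0.798% of all tested genes rose by that rule). SLFN11 in d4 followed with a fold of 3.66 and a probability of 0.793, and SLFN12 in d4 with -1.37 and 0.638, in the authors' deposited table. Each other value of a member against WT had a probability of at most 0.0471.

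SLFN5, the transcriptional repressor, stood above WT in 5 of 6 mutants whether or not folds were centred on the median gene, and in d3b its value near 0 turned to -0.013 on centring. The authors' deposited table gives folds of 0.55 in d0x, 0.48 in d1, 1.60 in d2, 0.28 in d3a, 0.05 in d3b and 0.72 in d4. A fold of that size is no rarity in d2, where 1353 of 38113 genes were at least as high, but only 30 of those 1353 were called. Adding the WT against EV fold places SLFN5 relative to the vector. The summed log2 fold was -0.13 in d2, or 91.3% of the EV level, followed by -1.01 in d4, -1.18 in d0x, -1.25 in d1, -1.45 in d3a, -1.68 in d3b and -1.73 in WT. On centring, d3b at -1.70 and not WT at -1.69 was the lowest. The genes that fell in WT against EV had a median sum of -0.23 in d2 and -0.56 in d4, so they too stood higher in d2 than in d4. Whether neighbours in this order differ could not be tested, since the sums have no error and share the WT libraries. SLFN5 fell in WT and the same WT libraries enter every mutant fold, so positive folds against WT can be partly built in.

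SLFN11, which blocks stressed replication forks, was highest in a different mutant. Its folds against WT in the authors' deposited table were 1.46 in d0x, 0.34 in d1, 1.44 in d2, 0.80 in d3a, -0.37 in d3b and 3.66 in d4. In d4 only 8 of 37812 genes were as high, and 1 of those 8 was called. Relative to the vector, the sums were -2.69 in d4, or 15.5% of the EV level, then -4.90 in d0x, -4.92 in d2, -5.55 in d3a, -6.01 in d1, -6.35 in WT and -6.73 in d3b. By these sums no group with ectopic MYC was above 15.5% of the vector's SLFN11. WT was used in every mutant comparison and SLFN11 was chosen as low in WT, so positive folds against WT are partly built in.

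The size of the SLFN11 folds against WT is uncertain, as the values in d3b and d1 show. In d3b its exact fold and probability are shared by 30 other genes, and in d1 the fold is shared by 5. In d0x, d2 and d3a the SLFN11 fold is shared by 1 other gene each, and in d4 and in WT against EV by none. Sharing a fold with at least 5 other genes held for 20.9% of all genes tested in d3b and for none of the 36 called there. The same WT libraries enter the WT against EV fold and every sum against EV, so the size of those SLFN11 values is uncertain too. The number of reads behind these folds was not used here.

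**Figure D2:**
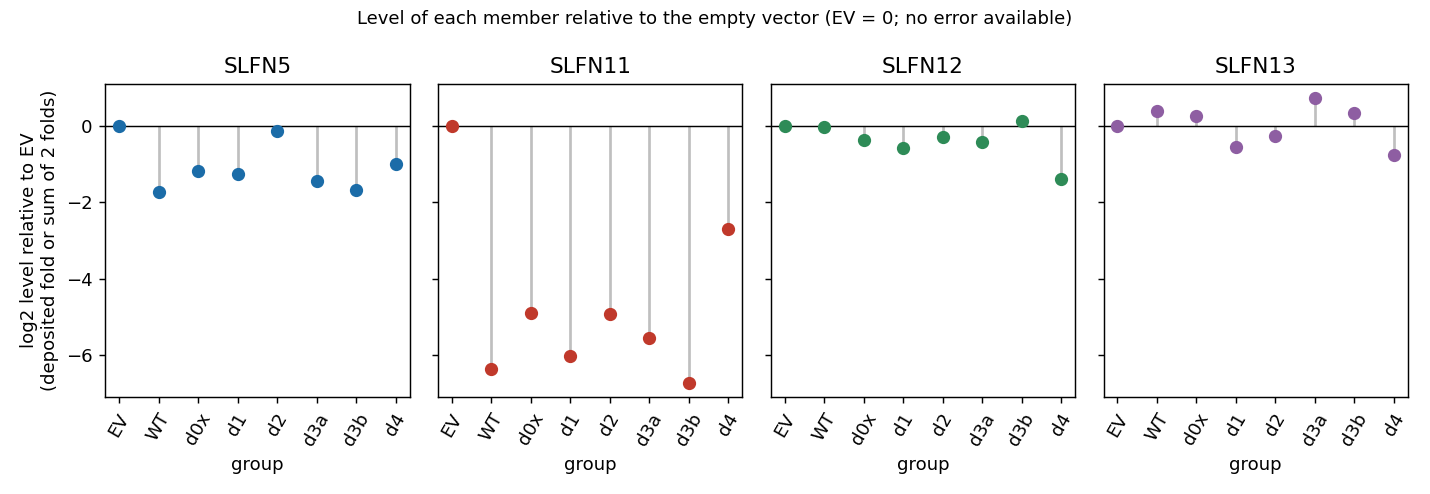
Log2 level of each member relative to the empty vector (y axis) in the 8 groups (x axis), where WT is the deposited fold and each mutant the sum of 2 deposited folds, without error. SLFN5 is nearest to EV in d2 (-0.13), SLFN11 in d4 (-2.69), and SLFN12 and SLFN13 are lowest in d4 (-1.40 and -0.76).

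SLFN12, the RNase activated through PDE3A, and SLFN13, which cuts transfer RNA, were low in d4. SLFN12 had folds against WT of -0.34 in d0x, -0.56 in d1, -0.26 in d2, -0.40 in d3a, 0.15 in d3b and -1.37 in d4 in the authors' deposited table. For SLFN13 the authors' deposited table gives -0.11 in d0x, -0.93 in d1, -0.64 in d2, 0.36 in d3a, -0.05 in d3b and -1.14 in d4. Relative to the vector, d4 was the lowest of the 8 groups for both, at 37.9% of EV for SLFN12 and 58.9% for SLFN13. Against all genes these are moderate values: 5.3% of genes tested in d4 lay at or below SLFN12 and 7.93% at or below SLFN13.

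Among other Schlafen genes no member of 4 was called in any comparison. SLFN12L, which follows SLFN13 on the chromosome, had the same direction in d4, -2.56 with a probability of 0.00 in the authors' deposited table, and 0.38 in WT against EV. SLFN14, a ribosome-associated endonuclease of platelet precursors, had no value in WT against EV, d1 or d3b, which the table gives to genes with read counts of 0. Its d4 fold of 2.49 in the authors' deposited table is shared exactly by 21 other genes and was not called. The distant relative SLFNL1, on another chromosome, lay between -0.38 and 0.16 in the authors' deposited table.

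Along the chromosome, the 2 genes that fell are the first 2 of the cluster. SLFN5 and SLFN11 stood above WT in d4, as did SLFN14 at the other end, whereas SLFN12, SLFN13 and SLFN12L between them stood below WT. Both comparisons use the WT libraries, and none of the d4 values was called. The 14 flanking genes on the list gave 12 values in WT against EV, with none called and a median of 0.24 that compares with -0.04 over all tested genes. SLC35G3 and UNC45B, the nearest on the SLFN5 side, had no value there. On the far side AP2B1, a clathrin adaptor subunit, stood at -0.16 in the authors' deposited table.

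**Figure D3:**
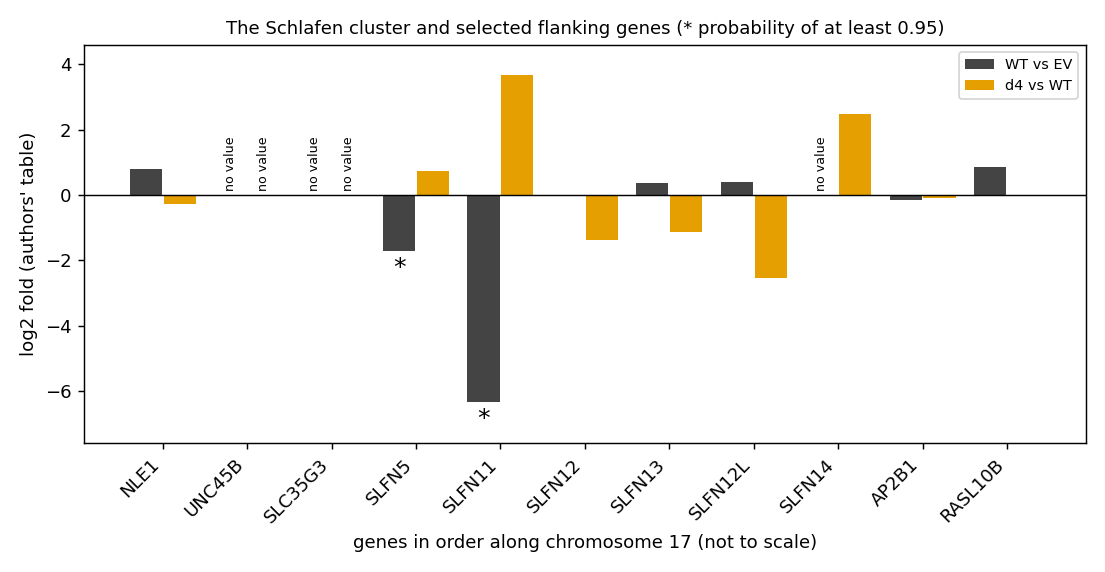
Log2 fold (y axis) of the cluster and 5 flanking genes in their order along chromosome 17 (x axis, not to scale), in WT against EV (dark bars) and d4 against WT (light bars). SLFN5 and SLFN11 fell in WT, while AP2B1 stood at -0.16, and SLFN12, SLFN13 and SLFN12L lie below 0 in d4.

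Reads can be assigned to the wrong Schlafen gene where copies are alike, so sequence shared between their annotated transcripts was measured. Of the distinct 50-base words of SLFN11 transcripts in GENCODE 29, 9.69% also occur in SLFN13 and none in SLFN5 or SLFN12. For SLFN13, 6.5% of words are shared with SLFN11. SLFN12 shares 1.32% of its words, all with SLFN12L, and SLFN5 shares none with the other 5. How reads that fit several genes were counted is not given in the sources used here, so the SLFN11 and SLFN13 values could hold some of each other's reads.

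The genes whose folds most resembled each member over the 7 comparisons were found among 2054 genes called in at least 1 of them. Likeness was the root mean square difference of log2 folds. SLFN5 had close matches: CTSO, a lysosomal cysteine protease (0.101), PAPPA2, which cleaves IGF-binding proteins (0.101), CTGF, a matrix protein and YAP target (0.131), TSC22D3, a glucocorticoid-induced leucine zipper protein (0.16), and DKK3, a secreted Dickkopf family protein (0.166). All 5 were called as risen in d2, with folds between 1.35 in TSC22D3 and 1.64 in PAPPA2 in the authors' deposited table, around the uncalled 1.60 of SLFN5. They were matched on the folds of SLFN5, d2 included, among called genes, so high folds there are built into the match. Of all tested genes, 1.45% were called in d2, risen or fallen.

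SLFN11 had no close match, the nearest being FAM83B (0.692), the serpin SERPINB5 (0.73), the arrestin-like ARRDC4 (0.77), MIR205HG, host of an epithelial microRNA (0.786), and the desmosomal cadherin DSC3 (0.936). SERPINB5 stood at -5.87 in WT against EV and MIR205HG at -6.11 in the authors' deposited table, and in d4 MIR205HG stood at 4.12 with a probability of 0.904. These likenesses include WT against EV, the comparison for which SLFN11 was picked, so deep folds there are built into the match. Over the 6 comparisons with WT alone, FAM83B, ARRDC4 and SERPINB5 stayed among the 5 closest, while MIR205HG and DSC3 did not. Of 10 epithelial markers, 3 fell in WT against EV, where 2.94% of all tested genes did: the basal keratins KRT5 (-5.10) and KRT14 (-4.66) and the cadherin CDH1 (-3.59) in the authors' deposited table, and the median of the list was -2.56. Among the 7 uncalled ones CLDN4 stood above 0, at 0.30 in the authors' deposited table. In d4 against WT 10 of 10 lay above 0, from 0.03 for KRT19 to 3.68 for KRT5 in the authors' deposited table, with a median of 0.91 and none called. Levels of these markers per group were not used here, and their part in the SLFN11 values was not tested. Of 12 immune cell markers, cells in which Schlafens are also expressed, 10 had values in WT against EV and none was called.

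**Figure D4:**
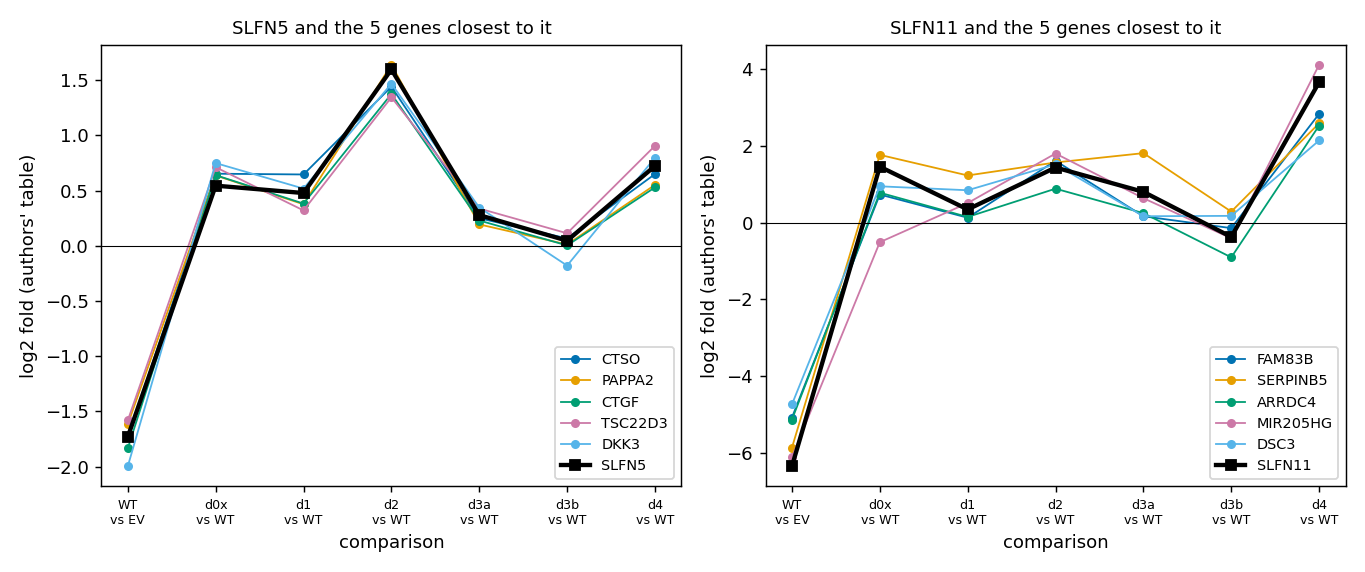
Log2 folds (y axis) in the 7 comparisons (x axis) for SLFN5 and SLFN11 (black squares) with the 5 genes closest to each, where lines only join the values of a gene. The genes near SLFN5 peak in d2, between 1.35 and 1.64, and those near SLFN11 are lowest in WT against EV, between -6.11 and -4.74, and highest in d4.

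SLFN12 was closest to TRAF3IP3, an adaptor of lymphoid cells (0.243), the coactivator PPARGC1A (0.247), CTD-2314B22.2 (0.338), the protease CTSS (0.339) and WDR3 (0.342), each of which fell in d4 in the authors' deposited table, for instance TRAF3IP3 at -1.27. Genes had to be called in at least 1 comparison to be compared, and for each of these d4 was the only one. Their falls in d4 are therefore built into the match. SLFN13 was closest to WDR3 (0.358), NCBP2-AS2 (0.361), TSR1 (0.374), RSL1D1 (0.382) and UTP20 (0.382). Of these WDR3, TSR1, RSL1D1 and UTP20 act in ribosome biogenesis, and UTP20 stood at 0.71 in WT against EV and -0.89 in d4 in the authors' deposited table, where SLFN13 stood at 0.37 and -1.14. Each of the 5 was called as fallen in d4, whereas SLFN13 was uncalled. They were matched on the folds of SLFN13, d4 and WT against EV included, among called genes, so likeness there is built into the match. The match was loose elsewhere: UTP20 stood at -0.20 in d3a and -0.25 in d1, and SLFN13 at 0.36 and -0.93, in the authors' deposited table. Over the 6 comparisons with WT alone, WDR3 and NCBP2-AS2 stayed among the 5 closest to SLFN13, while TSR1, RSL1D1 and UTP20 did not.

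Schlafens are induced by interferon, and the called genes of the signalling and stimulated-gene lists all fell in WT against EV. Of 18 signalling genes, 2 fell and none rose, with a median of -0.36. These were the receptor-bound kinase JAK1 at -0.55 and the transcription factor STAT2 at -0.87 in the authors' deposited table. Among 32 interferon-stimulated genes 6 fell, 29 lay below 0 and the median was -0.55, beside 2.94% fallen and a median of -0.04 over all tested genes. The 4 named by their probability were IFI44 at -1.18, SAMD9L at -1.32, IFIT2 at -0.88 and IFI6 at -0.79 in the authors' deposited table. The lowest of the list were uncalled, OAS2 at -2.79 and EPSTI1 at -2.18 in the authors' deposited table, so SLFN5 at -1.73 lay within its range and SLFN11 below it. In d2 none of the 32 was called and 24 lay above 0, with a median of 0.30, and in d4 20 lay above 0, with a median of 0.13. OAS3 in d3b, at 0.33 in the authors' deposited table, was the 1 call of this list against WT in the 6 mutants. The 15 antiviral restriction factors with values had a median of -0.13, and TRIM25 rose in WT against EV, at 0.46 in the authors' deposited table.

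Known regulators of SLFN11 transcription gave 2 fallen genes of 17 in WT against EV, beside 2.94% of all tested genes, and the median of the list, -0.05, was near the -0.04 over all tested genes. Both are ETS factors known to activate SLFN11. FLI1 stood at -0.73 and ETS1 at -0.71 with a probability of 1.00 each in the authors' deposited table. Against WT, FLI1 stood at 0.63 in d2 and 0.42 in d4, and ETS1 at 0.53 and 0.35, all uncalled in the authors' deposited table. The methyltransferase EZH2, which silences SLFN11, was at 0.26 (probability 0.374) in the authors' deposited table for WT against EV. That uncalled value was the highest of the list, on which 6 genes lay above 0 and 11 below, so it does not stand for the other regulators.

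Few genes that work with the Schlafen proteins were called, as few were among all tested genes. Of 17 replication stress partners of SLFN11 none was called in WT against EV, with a median of 0.16. Over all 38218 tested genes 1876 were called there, with a median of -0.04, so 0 of 17 is near the background. The RPA subunit RPA2 fell in d4, at -0.43, and the replicative helicase subunit MCM3 in d2, at -0.54, in the authors' deposited table. Of all tested genes, 1.11% were called in d4 and 1.45% in d2, risen or fallen. PDE3A, the partner of SLFN12, stood at -0.34 in WT against EV and was not called, whereas its paralogue PDE3B rose, with a fold of 1.00 in the authors' deposited table. Genes of tRNA cleavage and charging, 13 in all, had a median of 0.12 in WT against EV, and in d4 12 of them lay below 0, with a median of -0.17. The median over all tested genes in d4 was -0.05. Of 15 other genes tied to the response to DNA-damaging drugs, the efflux pump ABCG2 alone was called, where the authors' deposited table has 0.73 in WT against EV and -0.82 in d4.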

How the data were processed

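RNA from 32 libraries (8 groups of 4) was compared by the authors. Per the file headers, the deposited log2 values are posterior fold changes from a Bayesian model, the deposited probability, a score from 0 to 1, is called at 0.95 (a false discovery rate below 0.05), and genes with read counts of 0 have no value. GRCh37, DESeq, edgeR 3.16.5, STAR 2.5.2a and R 3.3.1 are named, without roles, in the submitters' processing notes. How libraries were scaled is not given in the sources used here, and depth is unknown. The 7 comparisons were read as deposited, each mutant was placed against EV by adding 2 folds, and 14 gene lists were described by counts or medians. The members and lists were chosen with earlier results of these data known. Named were the members, the other Schlafens, MYC, MYCN, up to 4 called genes per list by probability in WT against EV, called flanking or PDE3A-complex genes, and the 5 closest genes per member, clone-based names aside (LINC, LOC, and AC, AP or RP with digits). AP2B1, SLC35G3 and UNC45B were added for position, and EZH2, PDE3A, OAS3, RPA2, MCM3, SERPINB5, MIR205HG, KRT19, CLDN4, OAS2, EPSTI1 and further values against WT after their values were seen. Some genes of these lists are not reported here, though they stay in the counts and medians of the lists. Likeness and motif functions were tested on simulated data. Python 3.11.15 with pandas 2.3.3 was used. RefSeq coordinates (GRCh38.p14) belong to the printed sequences alone.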

Additional observations from a re-analysis of the deposited data

How the results depend on the processing

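At a probability of 0.90 the count of members called in d2 against WT was 1, SLFN5, in place of 0. The other 6 counts at 0.90, and all 7 counts at 0.99 or with an absolute log2 fold of at least 1, equalled those reported. Centring each comparison on the median of all tested genes, a shift of at most 0.07, changed the sign of 2 of 28 member folds, both near 0: SLFN12 in WT against EV became 0.014 and SLFN5 in d3b against WT -0.013. None of the 24 sums against EV changed sign. Of the 5 closest genes, 4 were shared for SLFN5, 3 for SLFN11, 2 for SLFN12 and 2 for SLFN13 when WT against EV was left out. The authors' fit of MYC-bound genes holds no member, so that alternative gave no value. Leaving out single libraries was not run, as only comparisons were analysed here. No paired analysis was possible because the values are comparisons of groups and carry no replicate numbers.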
